A study of Mus musculus with 2 samples.

Results

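The plasminogen activator system was followed in dissociated back skin, with 1 mouse as control and 1 mouse with inducible miR-205, through 5 of its components: Plaur, Plau, Plat, Serpine2 and Serpinb2. These 5 genes, of 31053 in the feature table, were chosen by symbol with their levels and their induced-to-control ratios already known, so the values below are descriptions and no test was made of them. Both mice were C57BL/6, carried a K14-H2BGFP allele and were taken at postnatal day 53. The inducible mouse expressed miR-205, a microRNA of skin epithelium, from a doxycycline-responsive transgene under Krt14-rtTA. Krt14-rtTA is active where the Krt14 promoter is, as in basal keratinocytes. Doxycycline chow was given for 4 days from day 49. The extraction protocol gives it to both mice, whereas the control sample is labelled untreated, and the transgenes of the control mouse are not given in the sources used here. Cells were sorted to a ratio of 3:5:2 for epidermis, follicle and dermis, and each mouse gave 1 single-cell 3′ RNA-seq library made on the same chip. With 1 library per group the mouse, the library and the induction cannot be told apart, and no spread between animals was measured.

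Urokinase (Plau) and tissue-type plasminogen activator (Plat) cut plasminogen into plasmin, a protease that degrades fibrin and matrix proteins. The urokinase receptor (Plaur) is anchored to the outer membrane by a lipid and holds urokinase at the cell surface, where it also contacts integrins and vitronectin. Serpins stop the activators: Serpine2 (protease nexin-1) acts outside the cell, and Serpinb2 (plasminogen activator inhibitor 2) is largely kept inside it and is well known in stratified epithelium. In skin the system is best known from the edge of healing wounds, where migrating keratinocytes make the receptor and urokinase.

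The sequence of the induced microRNA and its matches in the 5 genes are shown because the study raised this microRNA. Capitals mark the seed, bases 2 to 8, as given by RefSeq for chr1:193507503-193507524 on the minus strand of GRCm38.p6.
mmu-miR-205-5p: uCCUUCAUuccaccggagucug
The complement of the seed, ATGAAGG, was searched on the transcribed strand of the longest annotated 3′ UTR of each gene on build NCBIM37. It occurred in Plat and Serpinb2, once each, and is in capitals with 10 bases on either side.
Plat, chr8:23892777-23892783, plus strand: agttttaaggATGAAGGtctggcttta
Serpinb2, chr1:109421910-109421916, plus strand: taatttaataATGAAGGaaaaatatga
No match lay in the 3′ UTRs of Plaur (402 bases), Plau (938 bases) or Serpine2 (808 bases). Of 20007 genes with an annotated 3′ UTR, 2069 (10.3%) held these letters, without regard to length. A match describes letters and not a bound site. Of the 2 genes with a match, Plat was higher and Serpinb2 lower in the induced library over all kept cells, by log2 ratios of 0.94 and -0.85.

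Plaur and Serpinb2 also shared a motif in the window from 250 bases before to 50 bases after their RefSeq starts on GRCm38.p6. The AP-1 motif TGANTCA, which reads as itself on both strands, occurred in 2565 of 32851 such promoters (7.81%). It is shown in capitals because genes of the AP-1 family are compared below between cells with and without Plaur.
Plaur, chr7:24462414-24462420, 69 bases before the start: cccctggagcTGACTCActctttagca
Serpinb2, chr1:107511329-107511335, 94 and 181 bases before its annotated starts: agtaaaatgtTGAATCAtacaaagaat
The window of Serpine2 held no match. No promoter window was available for Plau or Plat, so neither was searched.

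The libraries held 4545 control and 4264 induced barcodes, of which 3936 and 3628 were kept. Median depth was 12198.5 and 11752.5 unique molecular identifiers (UMIs) per cell, and 11 barcodes occurred in both libraries. Clustering without the 5 genes gave 21 populations. Of these, 18 were named from marker genes and 3 kept a number: cluster 1 led by Gjb2, Tnfsf18 and Ccl2, cluster 2 with Ntrk2, Vsnl1 and Sostdc1, and cluster 13 with Oas1f and Pou3f1. The population resembling hair follicle stem cells (HF-SC-like) had Krt24 among its leading genes and raised Cd34, Krt15, Lhx2, Postn and Sox9. The hair germ-like population had Lgr5 among its leading genes and raised Cdh3, Lef1, Gli1 and Shisa2, but the smooth muscle gene Tagln stood beside Lgr5 and 4 smooth muscle or pericyte markers were raised too. Endothelial-like cells numbered 7 and 14, and the cells of 1 T cell-like cluster numbered 8 and 60, so ratios were read only in the other 19 populations. IFE below stands for interfollicular epidermis and HF for hair follicle.

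Levels are given as CPM, the UMIs of a gene per 1000000 UMIs of the population in 1 library, with an exact 95% Poisson interval, and a gene's ratio is the log2 of induced over control CPM with an exact 95% interval. These intervals cover counting error only. A ratio was read where both libraries together held at least 20 UMIs of the gene and each held at least 20 cells of the population, and a ratio beyond 1 in either direction is called lower or higher. Levels are not corrected for transcript length, and apart from 1 ranking by UMIs they are set side by side only between populations and libraries.

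Plaur, the receptor, was most concentrated outside the keratinocytes. It had a ratio below 0 in the keratinocyte populations where it was read. In cluster 1 and in inner bulge-like, upper bulge-like, IFE granular-like and sebaceous gland-like cells it had an interval that crossed 0. Over all kept cells it had 4062 UMIs in control and 2217 in the induced library, or 80.3 (77.9 to 82.8) and 48.9 (46.9 to 50.9) CPM, a log2 ratio of -0.72 (-0.79 to -0.64). The median ratio of all 14484 genes read there was 0.10. Weighting the induced populations by their share of control UMIs gave -0.71, so the value was about as large at equal population sizes.

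The highest Plaur level was in endothelial-like cells, at 680 CPM in control and 952 CPM in the induced library, from 7 and 14 cells. Macrophage-like cells followed at 451 (392 to 517) and 419 (364 to 479) CPM, and fibroblast-like cells at 218 (195 to 243) and 151 (135 to 170) CPM. These populations lie outside the keratinocytes, among which Krt14 is active. Macrophage-like cells were 0.94% of control cells and held 5.12% of Plaur UMIs, and 1.41% and 9.52% in the induced library. Fibroblast-like cells were 3.46% of control cells and held 8.15%, and 5.10% and 13.3% in the induced library. Among epithelial populations the control order began with hair germ-like cells at 147 CPM, IFE basal-like cells at 114 CPM, cycling-like cells at 107 CPM, cluster 2 at 92.1 CPM and HF-SC-like cells at 80.6 CPM. The intervals of IFE basal-like cells (107 to 121 CPM) and cycling-like cells (95.4 to 119 CPM) overlapped, as did those of cluster 2 (84.7 to 99.997 CPM) with both cycling-like and HF-SC-like cells. Plaur was near its floor in cluster 13, with 4 UMIs among 129 control cells and 3 among 103 induced cells.

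**Figure D1:**
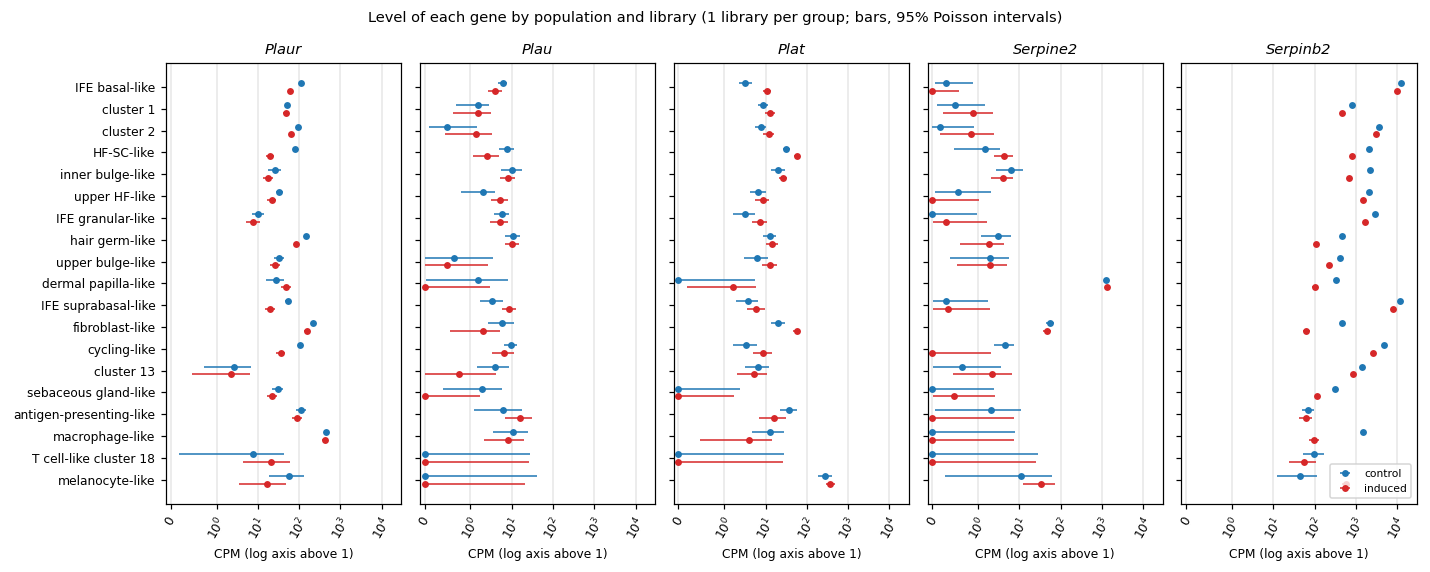
Level of each gene in CPM (x axis, logarithmic above 1) in the 19 populations with at least 20 cells in each library (y axis). Each point is 1 library, blue for control and red for induced, and bars are 95% Poisson intervals. Serpine2 stands out in dermal papilla-like cells at 1222 and 1328 CPM, and Serpinb2 in IFE basal-like cells at 12756 and 9766 CPM.

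In HF-SC-like cells, with 350 cells in each library, Plaur had 277 UMIs in control and 70 in the induced library. Its level was 80.6 CPM (71.4 to 90.7) against 19.99 CPM (15.6 to 25.3), a log2 ratio of -2.003 (-2.41 to -1.63). The 2 libraries' intervals did not overlap, and 0.407% of the genes read in this population had a lower ratio. Of the 5 genes, Plaur, Plau and Serpinb2 were called lower here and Serpine2 higher, where 2.24% of all 9579 genes were called lower and 3.73% higher. The rule that chose the genes used this contrast, so nothing is read from that count.

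Fewer HF-SC-like cells had a Plaur UMI in the induced library, and cells with one had a median of 2 UMIs in control and 1 in the induced library. The means were 0.79 and 0.2 UMIs per cell. At such means a lower amount per cell also leaves fewer cells with a UMI, so the 2 cannot be told apart. In control, 118 of 350 cells had at least 1 Plaur UMI and the highest cell had 11. In the induced library 33 cells had one and the highest had 8. Thinning each cell to 5000 UMIs dropped 23 shallower control cells and 14 induced ones. After it, 83 of 327 control cells (25.4%, 20.8 to 30.5) and 24 of 336 induced cells (7.14%, 4.63 to 10.4) had a Plaur UMI. The unthinned shares were 33.7% and 9.43%. To reach 50% of the UMIs took the 6 highest cells in the induced library and the 27 highest in control. Without the 5 highest cells of each library the log2 ratio was -2.61. That step took away a larger share of the induced UMIs than of the control UMIs, which by itself moves the ratio away from 0. The value of -2.61 is therefore no check on the ratio. With all cells, the ratio was -2.22 in cells under 5% mitochondrial UMIs and -1.78 in cells from 5 to 10%.

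Hair germ-like cells, 202 in control and 210 in the induced library, had 344 and 228 Plaur UMIs. Their levels were 147 CPM (132 to 164) and 84.3 CPM (73.7 to 95.9), a log2 ratio of -0.81 (-1.05 to -0.56). The thinned share was 35.4% (28.7 to 42.5) in control and 20.9% (15.5 to 27.1) in the induced library, and these intervals did not overlap. The ratio in hair germ-like cells was smaller than in HF-SC-like cells, and the 2 ratio intervals did not overlap. It was -0.41 when the genes of interest were allowed among the variable genes used for clustering, which moves cells between neighbouring populations.

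**Figure D2:**
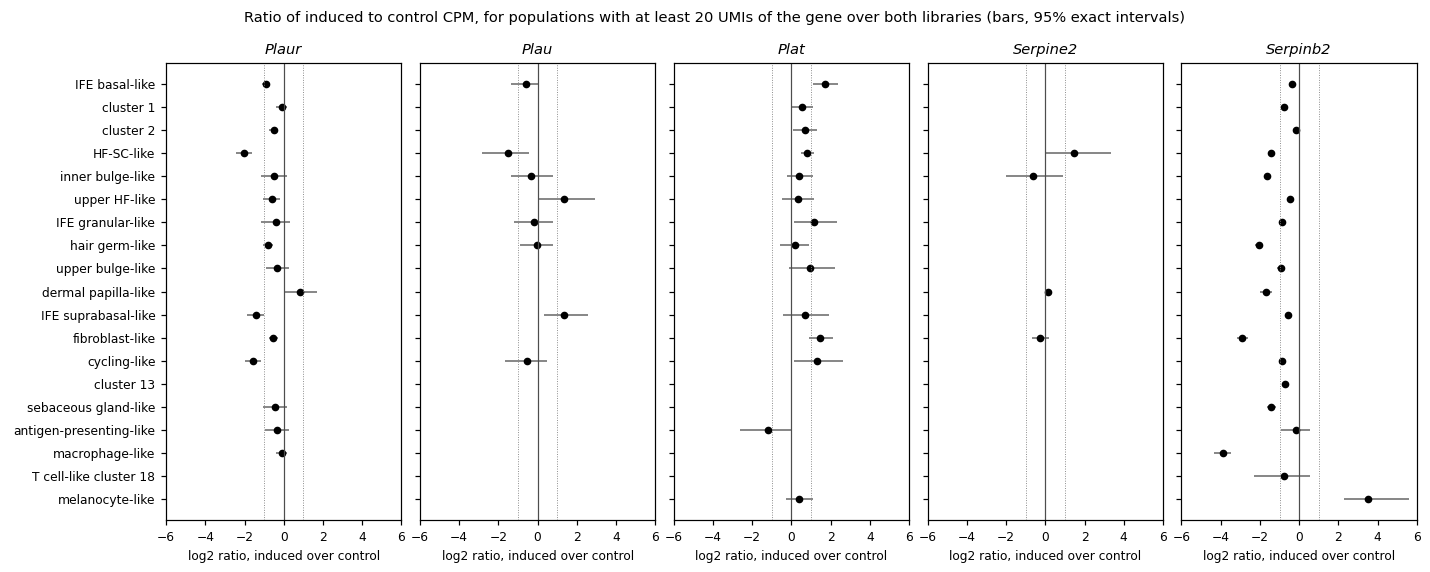
Log2 ratio of induced to control CPM (x axis) of each gene by population (y axis), with exact 95% intervals as bars; dotted lines mark -1 and 1, and populations with under 20 UMIs of the gene over both libraries are blank. Plaur points lie below 0 in 15 of 16 populations and Plat points above 0 in 13 of 14.

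In the named IFE populations and in cycling-like cells Plaur had ratios below 0, which as point values were nearer to 0 than in HF-SC-like cells. IFE basal-like cells had 1116 and 372 UMIs, or 114 and 59.9 CPM, a log2 ratio of -0.93 (-1.10 to -0.76). IFE suprabasal-like cells had 53.7 and 19.8 CPM, a ratio of -1.43 (-1.90 to -0.996), where 1.85% of all genes were called lower. Cycling-like cells had 107 and 36.5 CPM, a ratio of -1.54 (-1.95 to -1.17), where 2.26% were called lower. The intervals of IFE suprabasal-like and cycling-like cells overlapped that of HF-SC-like cells (-2.41 to -1.63). In IFE granular-like cells the ratio was -0.40, with an interval that crossed 0 (-1.18 to 0.34). In all, the Plaur ratio was below 0 in 15 of the 16 populations where it was read, was called lower in 3 and was called higher in 0. The 8 populations whose whole interval lay below 0 included fibroblast-like cells at -0.53 (-0.76 to -0.30). In macrophage-like cells the ratio was -0.11 (-0.39 to 0.18), and in cluster 1, the second largest population, it was -0.11 (-0.37 to 0.14). Dermal papilla-like cells went the other way, with 18 and 60 UMIs, or 27.0 CPM (16.0 to 42.6) and 48.2 CPM (36.7 to 62.0).

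**Figure D3:**
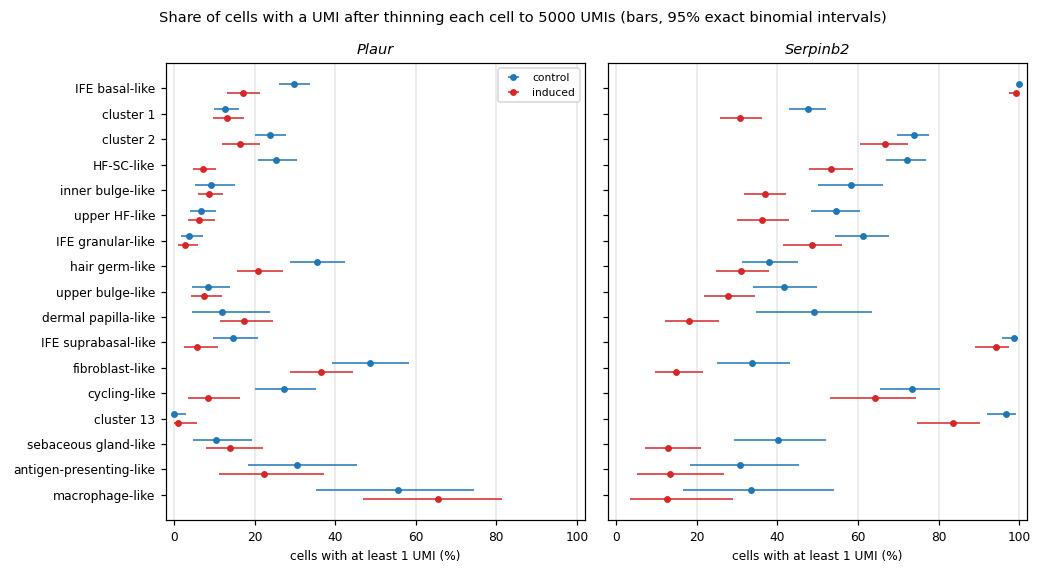
Share of cells with at least 1 UMI of Plaur or Serpinb2 (x axis, percent) after thinning each cell to 5000 UMIs, by population (y axis), for populations with at least 20 such cells in each library. Points are 1 library each and bars are exact 95% binomial intervals; Plaur in HF-SC-like cells is at 25.4% in control and 7.14% in the induced library.

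Plau, the urokinase that the receptor binds, was scarce everywhere and showed no one direction. It had 233 UMIs in control and 188 in the induced library over all kept cells, or 4.61 and 4.14 CPM, a log2 ratio of -0.15 (-0.44 to 0.13). Its highest levels among populations with at least 20 cells were 10.8 CPM in macrophage-like control cells and 16.0 CPM in antigen-presenting-like induced cells, on 5 and 8 UMIs. In HF-SC-like cells it had 26 and 9 UMIs, a ratio of -1.51 (-2.84 to -0.42), but 11 of the 26 control UMIs were in 1 cell and the 5 highest cells held 73.1%. Hair germ-like cells had 25 and 28 UMIs, or 10.7 and 10.3 CPM. It was called higher in upper HF-like cells, with 7 and 18 UMIs (1.36, 0.09 to 2.92), and in IFE suprabasal-like cells, with 11 and 25 UMIs (1.36, 0.32 to 2.57). In those populations 2.67% and 3.3% of all genes were called higher.

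Few cells carried the receptor and its ligand together. In thinned control cells, 22 carried a UMI of both Plaur and Plau, of 724 with Plaur and 62 with Plau, where 12.4 would be expected if the genes were independent over all kept cells. The induced library had 12 such cells, with 6.25 expected. These expected counts do not allow for populations that differ in both genes. Within hair germ-like cells all 5 control cells with Plau also had Plaur (1.77 expected), and 3 of 9 did in the induced library (1.88 expected). Within HF-SC-like cells there were 2 and 1 such cells. In 16 comparisons, each of 1 population in 1 library, the share with Plau was higher among Plaur-positive cells in 8 and lower in 6. The median difference was 0.18 percentage points, and the intervals lay apart in 0. Cells of 1 library are not replicates, and no test was made.

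Plat, the tissue-type activator, was concentrated in melanocyte-like cells and had a ratio above 0 in 13 of the 14 populations where it was read, with the whole interval above 0 in 6. Over all kept cells it had 464 and 797 UMIs, or 9.18 and 17.6 CPM, a log2 ratio of 0.94 (0.77 to 1.11), and 0.76 with populations weighted as in control. Melanocyte-like cells had 281 CPM (182 to 415) in control and 370 CPM (286 to 470) in the induced library, from 24 and 29 cells of low depth, and these intervals overlapped. HF-SC-like cells followed among the epithelial populations, with 110 and 198 UMIs, or 32.0 CPM (26.3 to 38.6) and 56.6 CPM (48.9 to 65.0), a ratio of 0.82 (0.48 to 1.17). A single control cell held 30 of those UMIs, and without the 5 highest cells of each library the ratio was 1.25. The ratio was called higher in IFE basal-like (1.73), fibroblast-like (1.47), cycling-like (1.32) and IFE granular-like cells (1.15). There 2.6%, 4.83%, 3.03% and 2.9% of all genes were called higher. In fibroblast-like cells, 31 and 112 UMIs gave 20.5 CPM (13.9 to 29.0) and 57.5 CPM (47.3 to 69.1), with 27 of the induced UMIs in 1 cell. The value in IFE basal-like cells, from 32 and 68 UMIs, was 0.71 after thinning. The exception was antigen-presenting-like cells, with 19 and 8 UMIs (-1.20, -2.65 to 0.01), where 5.35% were called lower. The ratio in hair germ-like cells was 0.16 (-0.56 to 0.90).

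Serpine2, an inhibitor outside the cell, was almost wholly a transcript of dermal papilla-like cells, the mesenchyme at the base of the follicle. These cells held 816 of 948 UMIs in control (86.1%) and 1655 of 1800 in the induced library (91.9%), while they were 3.61% and 6.12% of the kept cells. Their level was 1222 CPM (1139 to 1309) in control and 1328 CPM (1265 to 1394) in the induced library, a log2 ratio of 0.12. After thinning, 84.3% (71.4 to 92.98) and 95.7% (90.8 to 98.4) of them had a Serpine2 UMI. Fibroblast-like cells came next at 54.8 (43.6 to 67.9) and 46.2 (37.1 to 56.7) CPM.

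Over all kept cells Serpine2 was at 18.7 and 39.7 CPM, a log2 ratio of 1.08 (0.97 to 1.20), where 6.39% of genes were called higher. This value moved with the number of dermal papilla-like cells, 142 in control and 222 in the induced library. With the induced populations weighted by their share of control UMIs it was 0.08. Both libraries were sorted to the same ratio, and the source of the difference in cell numbers was not tested. HF-SC-like cells had 5 and 15 UMIs and hair germ-like cells 7 and 5, at most 4 in any 1 cell.

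Serpinb2, the mostly intracellular inhibitor, ranked high by UMIs in the epidermis. It had a ratio below 0 in 18 of 19 populations, with the whole interval below 0 in 16. Over all kept cells it had 239488 UMIs in control and 119525 in the induced library, or 4736 and 2635 CPM, a log2 ratio of -0.85 (-0.86 to -0.84). Weighted as in control, the ratio was -0.50. IFE basal-like cells held 52.1% and 50.7% of these UMIs. Ranked by UMIs without regard to transcript length, Serpinb2 was number 6 of 13790 detected genes in control IFE basal-like cells and number 7 of 13279 in induced ones. Its level there was 12756 and 9766 CPM, a ratio of -0.39 (-0.40 to -0.37). IFE suprabasal-like cells had 12039 and 8012 CPM (-0.59, -0.61 to -0.56). After thinning, all 578 control and 350 of 353 induced IFE basal-like cells had a Serpinb2 UMI, so there the difference was in the amount per cell.

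In HF-SC-like cells Serpinb2 had 7328 and 2784 UMIs, or 2132 CPM (2083 to 2181) and 795 CPM (766 to 825), a log2 ratio of -1.42 (-1.49 to -1.36). The thinned share of cells with a UMI was 72.2% (67.0 to 76.96) in control and 53.3% (47.8 to 58.7) in the induced library. The transcript was unevenly spread: 59 control cells had none, 106 had at least 10 UMIs, and the highest had 285. In the induced library 135 had none, 61 had at least 10, and the highest had 148. The ratio was -0.99 in cells under 5% mitochondrial UMIs and -1.68 in those from 5 to 10%. Inner bulge-like cells had a similar ratio, with 2163 and 699 CPM (-1.63, -1.71 to -1.55).

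**Figure D4:**
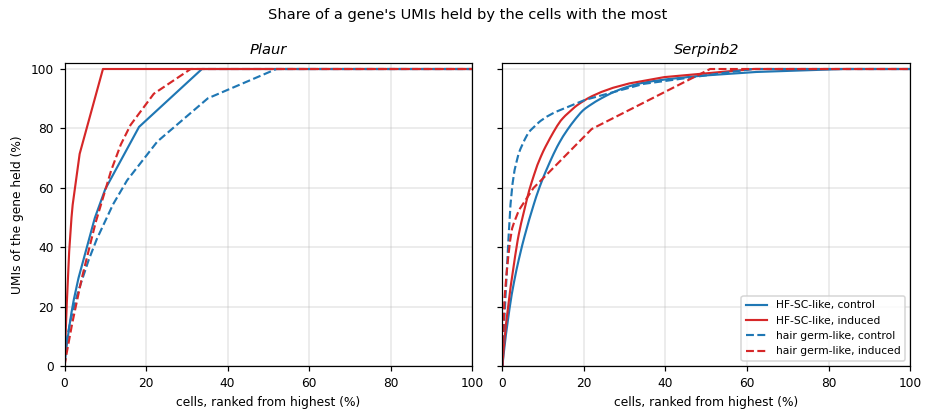
Share of a gene's UMIs held (y axis, percent) by cells ranked from the highest (x axis, percent of cells), for Plaur and Serpinb2 in HF-SC-like (solid) and hair germ-like (dashed) cells of the control (blue) and induced (red) library. The curve for Plaur in HF-SC-like cells passes 50% at 6 induced cells and at 27 control cells, and that for Serpinb2 in control hair germ-like cells at 4 cells.

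Hair germ-like cells had 1079 and 302 Serpinb2 UMIs, or 462 CPM (435 to 491) and 112 CPM (99.4 to 125), a log2 ratio of -2.05 (-2.24 to -1.87), where 2.19% of all genes were called lower. The 5 highest control cells held 61.4% of the UMIs, and without the 5 highest cells of each library the ratio was -1.57. Antigen-presenting-like cells also had Serpinb2 UMIs, and the source of these was not tested. The thinned share was 37.9% (31.1 to 45.2) and 31.1% (24.8 to 37.9) in hair germ-like cells, at median depths of 11057 and 11996.5 UMIs before thinning. It was 30.6% (18.3 to 45.4) and 13.3% (5.05 to 26.8) in antigen-presenting-like cells, at median depths of 8951.5 and 9592.5 UMIs. The control intervals overlapped, and the induced ones did so narrowly.

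The shares in fibroblast-like (33.6% and 14.9%) and macrophage-like cells (33.3% and 12.5%) were close to those of antigen-presenting-like cells in both libraries, and no expression is read from them. In control, 4 macrophage-like cells had at least 10 UMIs, the highest 234. The ratios there rested on few cells: in macrophage-like cells, at -3.87, the 5 highest cells held 96.3% of the 676 control UMIs, and without the 5 highest the ratio was -1.12. In fibroblast-like cells the ratio was -2.89 and, without the 5 highest, -1.44. Serpinb2 was called lower in 7 populations in all, the others being dermal papilla-like (-1.70) and sebaceous gland-like cells (-1.42) beside HF-SC-like, inner bulge-like and hair germ-like cells. A single control cell held 127 of the 226 Serpinb2 UMIs of dermal papilla-like cells. Single sebaceous gland-like cells held 230 of 467 UMIs in control and 136 of 245 in the induced library. Of all genes, 6.77% were called lower in macrophage-like, 1.63% in fibroblast-like, 3.9% in dermal papilla-like, 4.76% in sebaceous gland-like and 1.51% in inner bulge-like cells. Melanocyte-like cells were the exception, with 4 and 103 UMIs, of which 98 were in 1 induced cell; 7.36% of genes were called higher there.

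Other genes of the system were read from a list of 22 that includes the 5. Plasminogen itself (Plg), made mainly in liver, and the plasma inhibitor A2m had 0 UMIs in both libraries. In HF-SC-like cells 11 of the 22 genes had enough UMIs, of which 1 was called higher and 3 lower, all of them among the 5. Of all genes there, 3.73% were called higher and 2.24% lower. The 5 were chosen with this contrast known, so nothing is read from the count. The median log2 ratio of the 11 was -0.03, beside 0.09 over all genes. Anxa2 and S100a10, whose proteins together bind plasminogen at the cell surface, had ratios of -0.35 (2692 and 2109 CPM) and 0.06 (2060 and 2147 CPM). Plgrkt, a plasminogen receptor, was at -0.03, and so was St14, the protease matriptase. Lrp1, which takes up serpin complexes, was at 0.07, and Eno1, also a surface plasminogen receptor, was at 0.43.

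Among the same genes in hair germ-like cells, Anxa2 was at -0.54, S100a10 at -0.37, Plgrkt at 0.41, Lrp1 at 0.56, Eno1 at 0.18 and St14 at -0.16.

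Partners of the urokinase receptor were not called in either direction in HF-SC-like or hair germ-like cells, where 6 of 10 were read in each. HF-SC-like cells had a range from Itgb1, the shared integrin beta chain, at -0.58 (-0.69 to -0.47) to Itga3 at 0.10, with a median of -0.28. Hair germ-like cells had a range from Itgb1 at -0.50 (-0.67 to -0.33) to Lrp1 at 0.56, with a median of -0.17. Of 5 matrix proteases and inhibitors read in HF-SC-like cells, 1 was called lower and 1 higher, with a median of 0.08 beside 0.09 over all genes. Of all genes there, 2.24% were called lower and 3.73% higher. Mmp2, a gelatinase, had 158 and 15 UMIs in HF-SC-like cells (-3.38, -4.29 to -2.66), and Timp3, a protease inhibitor bound to matrix, had 181 and 631 (1.77, 1.53 to 2.02). Of 6 read in hair germ-like cells 2 were called lower and 0 higher, with a median of 0.08 beside 0.03 over all genes. Of all genes in hair germ-like cells, 2.19% were called lower and 5.96% higher. Timp1, an inhibitor of these proteases, was lowest there, at -3.29 with 29 and 3 UMIs, and Timp3 highest at 0.72.

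The relatives of Plaur and Serpinb2 did not follow them closely in HF-SC-like cells. Of 8 genes read that share the receptor's LU fold, 1 was called lower and 0 higher, from Ly6e at -1.12 to Lypd6 at 0.61, with a median of -0.07. Of 6 read clade B serpins other than Serpinb2, 1 was called higher and 0 lower, from Serpinb6c at -0.66 to Serpinb1a at 1.07, with a median of 0.18. Of all genes in HF-SC-like cells, 2.24% were called lower and 3.73% higher. Neither list had a called gene in hair germ-like cells, where 2.19% of all genes were called lower and 5.96% higher. The LU genes there ran from Ly6d at -0.86 to Ly6e at 0.48, and the serpins from Serpinb5 at -0.69 to Serpinb6a at 0.40.

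Of the injury-response genes of keratinocytes, 7 of 8 read in HF-SC-like cells had ratios below 0 and 2 were called lower, where 2.24% of all genes were. Their median was -0.55, beside 0.09 over all genes. The chemokine gene Cxcl2, a neutrophil attractant, was lowest, with 98 and 3 UMIs (-4.84, -7.36 to -3.47), and the matrix gene Tnc was highest at 0.26. Of 8 read in hair germ-like cells, 6 were below 0, with a median of -0.22 beside 0.03 over all genes, but Cxcl2 was highest there, with 12 and 136 UMIs (3.24, 2.44 to 4.28), where 5.96% of all genes were called higher, and Ptgs2, a prostaglandin synthase, was lowest at -2.24.

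Genes raised by tissue dissociation were present in both libraries and are given beside these values because they moved with the group. The 26 listed genes summed to 49504 CPM in control and 51450 CPM in induced HF-SC-like cells, and to 23935 and 28322 CPM in hair germ-like cells. Of the 26, 19 were above 0 in HF-SC-like cells (median 0.20, lowest Ier5 at -0.53, highest Socs3 at 1.39) and 21 in hair germ-like cells (median 0.55, lowest Hspb1 at -0.64, highest Socs3 at 1.22). Their part in the ratios of the 5 genes was not tested. Macrophage markers summed to 11.6 and 14.0 CPM in HF-SC-like cells and to 10.3 and 8.87 CPM in hair germ-like cells, against 5690 and 10696 CPM in macrophage-like cells.

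From cell to cell, the share carrying Fosl1, an AP-1 factor of migrating keratinocytes, was higher among cells with a Plaur UMI than among cells without one in 16 of 16 comparisons. The share carrying Fos, an AP-1 factor of the early response, was lower in 16 of 16. Each comparison is 1 population in 1 library with its cells thinned to 5000 UMIs, and these genes were singled out after their values were seen. The Fosl1 difference had a median of 16.3 percentage points, and the 2 intervals lay apart in 5 of the 16. The Fos difference had a median of -17.3 points, with intervals apart in 7. Krt16, a keratin of injured and activated epidermis, had a higher share among Plaur-positive cells in 14 of 16, with exceptions in fibroblast-like cells of both libraries. Lypd3, a relative of Plaur that marks differentiating and activated keratinocytes, also had a higher share in 14. The share of Fosb was lower in 16, that of Hspa1a in 15 and that of Egr1 in 14. The injury-response genes Hbegf and Ptgs2 were mixed, higher in 11 and 10 and lower in 5 and 6. Fosl1, Fos, Hspa1a and Egr1 are all on the list of genes raised by dissociation, so genes of that list went both ways. Ier5, also on it, was found in 50% of Plaur-positive and 23.4% of negative induced HF-SC-like cells. Its direction was not counted over the 16.

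In control HF-SC-like cells, Fosl1 was found in 98.8% (93.5 to 99.97) of 83 Plaur-positive cells and in 82.0% (76.6 to 86.6) of 244 negative cells. In the induced library it was found in 95.8% (78.9 to 99.9) of 24 and 67.3% (61.8 to 72.5) of 312. Krt16 was found in 47.0% and 27.0% of the control cells, and Lypd3 in 96.4% and 73.4%. In control hair germ-like cells Fos was found in 26.1% (16.3 to 38.1) of 69 positive and 56.3% (47.2 to 65.2) of 126 negative cells. In the induced library it was found in 34.9% (21.0 to 50.9) of 43 and 77.9% (70.8 to 84.0) of 163. Egr1 in the same induced cells was found in 20.9% and 65.0%. Fosl1 itself was lower in the induced library, at -0.34 in HF-SC-like and -0.41 in hair germ-like cells, whereas Fos was higher, at 0.45 and 1.09.

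**Figure D5:**
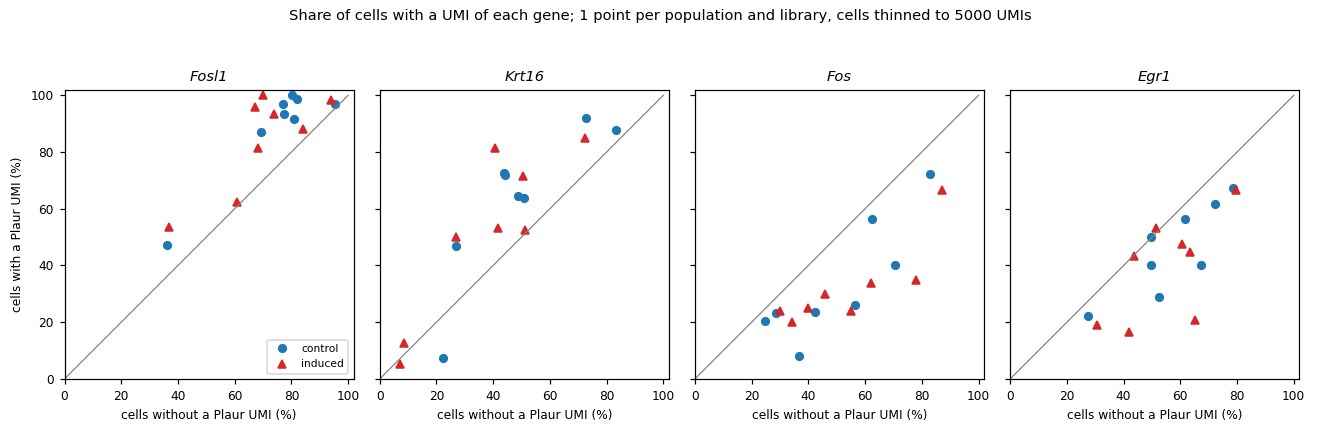
Share of cells with a UMI of Fosl1, Krt16, Fos or Egr1 among cells with a Plaur UMI (y axis, percent) against cells without one (x axis, percent), cells thinned to 5000 UMIs. Each point is 1 population in the control (circle) or induced (triangle) library, and the line marks equal shares; Fosl1 points lie above the line in 16 of 16 and Fos points below it in 16 of 16.

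Plaur and Serpinb2 occurred together in more cells of cluster 2 than expected of independent genes. Of its thinned cells 106 had both in control (87.9 expected) and 40 in the induced library (28 expected). Serpinb2 was found there in 89.1% (82.0 to 94.1) of Plaur-positive and 69.1% (64.2 to 73.7) of negative control cells, and in 95.2% (83.8 to 99.4) and 61.1% (54.3 to 67.7) of induced cells. The intervals lay apart in each library. This was particular to cluster 2. Over the 16 comparisons the share of Serpinb2 was higher among Plaur-positive cells in 9 and lower in 6. The median difference was 1.19 points, and no intervals outside cluster 2 lay apart. Of thinned control HF-SC-like cells 64 had both (59.9 expected), and 15 did in the induced library (12.8 expected). In hair germ-like cells 25 (26.2 expected) and 9 (13.4 expected) had both.

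Across populations, the genes whose log2 level was most like that of Plaur were Cxcl2 (Pearson r = 0.75), Anxa5 (0.74) and Itga5 (0.72), over 39 points of 1 population in 1 library each. Plat was most like the melanocyte factor Mitf (0.85), Cyp2j9 (0.82) and Gpnmb (0.82). Serpine2 was most like Mdk (0.98), Nkd2 (0.97) and Sobp (0.97), and Serpinb2 most like Rab38 (0.92), Trim16 (0.86) and Zdhhc21 (0.86). No gene came closer to Plau than 0.64 (Mtmr4, Adora2b and Tmem141). Between members, Plaur and Plau gave 0.44, and Plaur and Serpinb2 gave -0.04. Points share a library, so these are descriptions with no test.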

How the data were processed

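Single-cell 3′ RNA-seq libraries of 1 control and 1 miR-205-inducible mouse were analysed. The authors counted UMIs with Cell Ranger (matrix header 3.0.1) on mm10, per the labels, and deposited raw counts without normalization. The control library held 55465594 UMIs and the induced library 49733560. Among the features, 36 symbols are repeated. Genes were looked up by symbol, and 3′ UTRs were matched by identifier.

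Barcodes were retained with over 200 and under 5000 genes and under 10% mitochondrial UMIs, after the study's filter. Integration and clustering used Seurat 5.3.0 (R 4.3.3; 2000 variable genes, 30 dimensions, Louvain resolution 0.8), withholding 111 genes on the lists of interest. A population was named where at least 3 markers and at least 50% of its class's markers, each with at least 20 UMIs, were raised at least 2-fold and no other class had more markers among its top 10 genes. The naming rule was set after the clusters were seen. Doublets were kept; Scrublet in scanpy 1.11.5 marked 4 control and 5 induced barcodes, so an alternative left out the highest-scoring 165 and 145 instead, at an assumed 0.8% per 1000 barcodes.

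UMIs were summed per population and library as CPM. Log2 ratios used a pseudocount of 0.5 UMIs. Intervals are exact Poisson, exact conditional binomial or Clopper-Pearson at 95% and cover counting error only; the limit on a share of 0 is 3 counts of the total. Named genes were the 5 members, the other plasminogen genes with at least 20 UMIs (1 of which is not reported here), the highest and lowest ratio of each other list, and the 3 genes of highest Pearson correlation of log2(CPM + 10) among those with at least 200 UMIs. The members and the lists were chosen with earlier results of these data known. Ratio calculations were tested on simulated counts drawn from the Poisson model that the intervals assume. That checks the calculation only and does not cover UMIs held by few cells. Sequences came from RefSeq (GRCm38.p6), and 3′ UTRs from an annotation on NCBIM37. Promoter windows were available for 3 of the 5 genes, Plaur, Serpine2 and Serpinb2.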

Additional observations from a re-analysis of the deposited data

Results flagged for a closer look

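Among populations whose interval excluded 0, a few went against the direction of the same gene elsewhere. Plaur was higher in the induced library in dermal papilla-like cells, at a log2 ratio of 0.81 (0.06 to 1.68) from 18 and 60 UMIs, while the 8 other such populations were below 0. Plau was lower in HF-SC-like cells, at -1.51, while upper HF-like and IFE suprabasal-like cells were both at 1.36. Serpinb2 was higher in melanocyte-like cells, at 3.52, where 98 of 103 induced UMIs were in 1 cell, while 16 other populations were below 0. With 1 library per group these differences between populations were not tested.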

How the results depend on the processing

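No paired analysis was possible because each group had 1 library. Over 66 ratios and their alternatives, 631 values were computed, of which 533 stayed within the counting interval of the reported ratio, 98 moved outside it and 0 called ratios changed sign. The weighting of populations was added after seeing the data and moved 3 of 5 ratios over all kept cells. Ratios of few UMIs depended most on single cells, and depth limits Plau and Serpine2 outside dermal papilla-like cells.

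In HF-SC-like cells, leaving out the 5 highest cells of each library gave -2.61 for Plaur, 1.25 for Plat, 3.43 for Serpine2 (0 and 5 UMIs) and -1.51 for Serpinb2. Under 5% mitochondrial UMIs gave 1.60 for Plat, 3.65 for Serpine2 (0 and 5 UMIs) and -0.99 for Serpinb2. Plat was 0.49 (0.09 to 0.90) in cells from 5 to 10%. Serpinb2 was -1.34 without the highest-scoring doublets, -1.34 with the genes of interest among the variable genes, and -1.51 with a median-of-ratios size factor. In hair germ-like cells, keeping the genes of interest among the variable genes gave -0.41 for Plaur and -1.80 for Serpinb2. Serpinb2 was -1.57 without the 5 highest cells and -1.84 after thinning, and Plau was 2.40 under 5% mitochondrial UMIs (1 and 8 UMIs). The cause was not tested. Genes called lower numbered 215 in HF-SC-like cells, 73 with at least 100 UMIs and 1414 with at least 1 UMI; genes called higher numbered 357, 72 and 1822. In hair germ-like cells the counts were 200, 44 and 1275 lower and 543, 101 and 2547 higher, since each minimum sets which genes are counted. Among other values, without the 5 highest cells Plaur was 0.43 in macrophage-like cells, and Plat in upper bulge-like cells was -0.30 with the genes of interest among the variable genes; neither was called.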
